A study of Mus musculus with 6 samples.

Results

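A set of 9 genes of the Hedgehog pathway were examined in open-chromatin maps of the mouse embryonic retina: the ligand Shh, its receptor Ptch1, the signal transducer Smo, the co-receptors Gas1 and Boc, the decoy receptor Hhip, and the transcription factors Gli1, Gli2 and Gli3. A peak was given to a gene if its summit lay inside that gene, or if that gene had the nearest end of any protein-coding gene within 100 kb (GRCm38). For Shh, the peaks up to 1 Mb into the gene desert beside it were also counted. When the peaks of the 6 libraries were joined into regions wherever they shared 1 bp or more, 67 of 46780 regions belonged to these 9 of 21887 protein-coding genes.

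The maps came from ATAC-seq, an assay that marks open DNA by letting the Tn5 transposase insert sequencing adapters into it. Retinas were taken from C57BL/6 embryos at E14.5 (embryonic day), with 3 libraries from Atoh7 +/+ animals (wild type) and 3 from animals homozygous for a mutation of the Atoh7 shadow enhancer (SE/SE). Atoh7 encodes a proneural transcription factor needed for retinal ganglion cells, and a shadow enhancer is a second regulatory element that overlaps in function with a first one. Each library was made from both retinas of 1 animal, so the libraries are biological replicates, and no treatment is labelled. The whole retina was used, so fewer cells of a type and less open chromatin per cell cannot be told apart in these lists.

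Hedgehog ligands bind Ptch1, which otherwise holds Smo inactive; active Smo, working through the primary cilium, turns the Gli proteins from repressors into activators. Ptch1, Hhip and Gli1 are themselves well-known transcriptional targets of the pathway and form its feedback. In the embryonic retina, Shh made by ganglion cells acts on the neighbouring progenitors and controls their proliferation and the output of further ganglion cells.

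The libraries differed in the length of their lists. Wild-type libraries 1, 2 and 3 held 31340, 34797 and 27873 peaks and SE/SE libraries 1, 2 and 3 held 39115, 42722 and 44242, so every SE/SE list was longer than every wild-type list. The peaks covered 12.59 to 15.54 Mb in wild type and 17.41 to 19.95 Mb in SE/SE. Read depth is unknown from these lists. The wild-type libraries were amplified for 17, 18 or 19 PCR cycles and the SE/SE libraries for 15, 16 or 16; the labels do not give the number of each library, and genotype cannot be told apart from amplification. At Atoh7, the regions chr10:63089257-63089634 and chr10:63090131-63090667 had peaks in 3 wild-type and 0 SE/SE libraries. Gene-end peaks (within 1 kb of either end) were present in all 6 libraries for 7 of 8 retinal progenitor markers and 5 of 6 ganglion cell markers. They were also present in all 6 for 3 of 3 mesenchyme, 3 of 4 pigment epithelium, 1 of 3 optic stalk and 1 of 3 endothelium markers, and for 0 of 3 each of the astrocyte, lens, and microglia and blood markers. The part of such other cells in the results was not tested.

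RefSeq promoter windows (250 bases before to 50 bases after a start, GRCm38.p6) matched 6 of the 9 genes, and all 6 (Ptch1, Smo, Gas1, Hhip, Gli2 and Gli3) overlapped a peak in 6 of 6 libraries, as did 38.8% of all 32851 windows. The bases before the start are shown for 3 of them: Ptch1, with the most CpG of the 6; Hhip, whose start carried several short peaks in wild type and 1 long peak in SE/SE; and Gas1, with the lowest GC share of the 6. Capitals mark the GC box GGGCGG, read on either strand (CCGCCC on the other). All 3 lie on the minus strand and are written 5′ to 3′ in the direction of transcription, at chr13:63565736-63565985, chr8:80058009-80058258 and chr13:60177536-60177785.

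Ptch1: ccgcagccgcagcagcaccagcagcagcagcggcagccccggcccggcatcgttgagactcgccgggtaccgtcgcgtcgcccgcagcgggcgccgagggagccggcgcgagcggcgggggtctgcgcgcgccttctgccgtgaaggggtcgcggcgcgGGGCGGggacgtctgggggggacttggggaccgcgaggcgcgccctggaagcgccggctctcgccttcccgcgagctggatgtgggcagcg
Hhip: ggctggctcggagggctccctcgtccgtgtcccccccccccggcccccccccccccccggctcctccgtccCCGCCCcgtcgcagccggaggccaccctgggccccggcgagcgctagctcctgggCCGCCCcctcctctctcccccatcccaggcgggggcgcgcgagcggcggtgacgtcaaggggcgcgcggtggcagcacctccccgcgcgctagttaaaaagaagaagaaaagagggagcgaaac
Gas1: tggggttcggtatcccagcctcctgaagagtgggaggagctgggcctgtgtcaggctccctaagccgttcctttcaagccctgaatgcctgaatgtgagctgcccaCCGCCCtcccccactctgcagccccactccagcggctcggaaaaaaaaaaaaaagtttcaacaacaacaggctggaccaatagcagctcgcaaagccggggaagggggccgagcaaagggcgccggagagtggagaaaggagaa

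The printed stretches held 41 CpG at Ptch1, 28 at Hhip and 10 at Gas1, with a GC share of 78.4%, 76% and 58.8%. Over the full 300 bases, the 6 windows held 17 to 47 CpG, against a median of 7 over all windows. Ptch1 stood at the 98.8th percentile of all windows by CpG number, Gli3 at the 96.1st, Hhip at the 89.4th, Gli2 at the 87.1st, and Gas1 and Smo at the 70.3rd. A GC box was found in 5 of the 6 windows (not in Smo) and in 35.7% of all windows. The GLI motif GACCACCCA, searched on both strands, was found in 0 of the 6 windows, exactly or with 1 mismatch, and in 0.253% (exact) and 6.74% (up to 1 mismatch) of all windows.

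Most open regions at the Hedgehog genes were called in every library. Of the 67 regions, 38 (56.7%) had a peak in all 6 libraries, beside 24370 (52.1%) of all regions. Gene-end peaks were present in all 6 libraries for 8 of the 9 genes, the exception being Shh, and for 55.6% of all protein-coding genes. By the summits of their peaks, 43 regions lay inside one of the 9 genes, 3 across a gene end, 20 between genes and 1 inside a neighbouring gene. Across means with summits on both sides of the end. Some regions counted as inside or between genes still overlapped a gene end, among them the start region of Gli3. The shared regions were long and strong: their median length was 587 bp (183 to 2409), and their signal value, averaged as a percentile within each library's own list, had a median of 60.8 (22.7 to 99.6). The other 29 regions had a median length of 183 bp (104 to 440) and a median percentile of 16.0 (2.44 to 41.5). A region spans the peaks of all libraries that hold it, so more libraries can make it longer. Signal values grow with peak width, so length and percentile are not separate measures.

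Those 29 regions were found mostly in SE/SE libraries. More SE/SE than wild-type libraries held a peak in 28 of them, the genotypes were equal in 1, and in 0 did more wild-type libraries hold one. Across all 22410 partly shared regions, 95.7% were held by more SE/SE libraries and 432 by more wild-type libraries. Wild-type library 2 contributed to 14 of the 29, and wild-type libraries 1 and 3 to 3 and 2. A peak in 3 SE/SE and 0 wild-type libraries was seen in 2 of the 67 member regions, where the background over all regions was 8.23%. The reverse pattern was seen in 0 of 67, with a background of 0.0321%. Without wild-type library 2, 8 member regions had the first pattern, beside 15.1% of all regions, and 4 had it without SE/SE library 1, beside 14.6%. The map of the 67 regions by library shows this layout gene by gene.

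**Figure D1:**
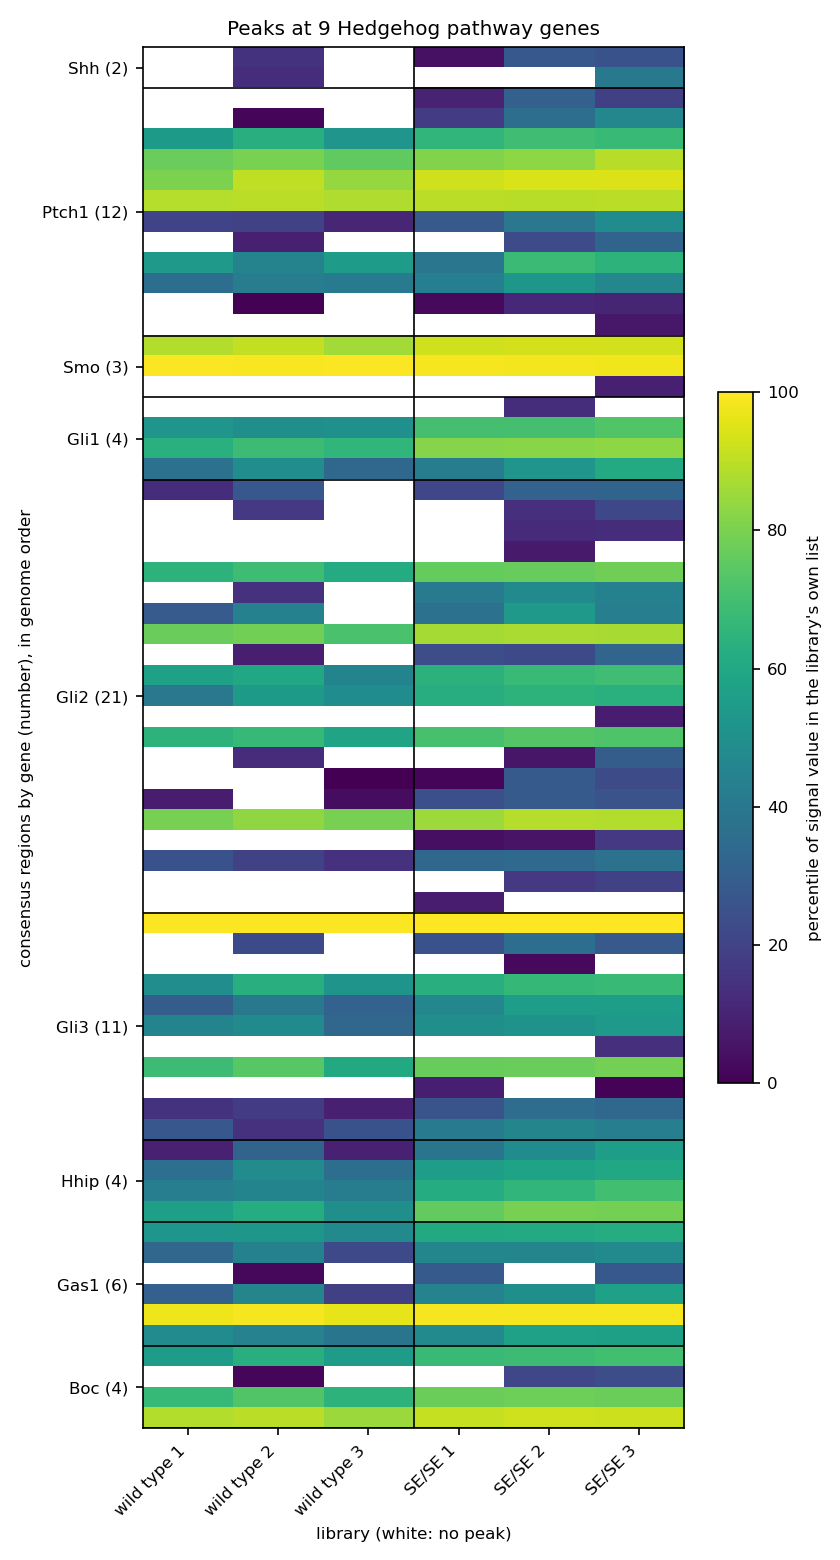
Presence of the 67 regions of the 9 Hedgehog genes (rows, ordered by gene and position) in the 6 libraries (columns); the colour gives the percentile of the peak's signal value within that library's own list, and blank cells have no peak. In 38 rows all 6 cells are filled, and in 28 of the other 29 rows more SE/SE than wild-type cells are filled.

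The 9 genes together held 50, 61 and 50 peaks in wild-type libraries 1 to 3 and 58, 61 and 63 in SE/SE libraries 1 to 3. The groups overlapped through wild-type library 2, at 53.7 ± 6.35 against 60.7 ± 2.52 (mean ± SD, n = 3 each; exact two-sided permutation p = 0.3). Without that library the mean difference was 10.7 peaks in place of 7 (exact permutation p = 0.1). Without any other single library it was 5.17 to 8.33 peaks (exact permutation p = 0.3 to 0.5). Counted as regions, the genes had 41, 52 and 40 in wild type and 53, 59 and 63 in SE/SE, with no overlap between groups. The means were 44.3 ± 6.66 and 58.3 ± 5.03 (ratio 1.32, n = 3 each, exact permutation p = 0.1), a difference of 14 regions that went to 1.33 with equal list lengths (exact permutation p = 0.5). The bases under their peaks, 22229, 26408 and 21213 in wild type and 27698, 32190 and 33293 in SE/SE, did not overlap either (ratio 1.33, exact permutation p = 0.1). With 3 libraries against 3, 0.1 is the smallest p this test can give, so none of these differences could pass a threshold of 0.05.

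Set against the longer SE/SE lists, the share of bases at the Hedgehog genes overlapped between the genotypes. They were 0.163, 0.17 and 0.169% of all covered bases in wild type and 0.159, 0.165 and 0.167% in SE/SE, and the values of the groups crossed. The difference of the means, SE/SE minus wild type, was -0.00366 percentage points (n = 3 each, exact permutation p = 0.3). The share of peaks did not overlap: 0.16, 0.175 and 0.179% in wild type and 0.148, 0.143 and 0.142% in SE/SE (n = 3 each, exact permutation p = 0.1). With the same number of the strongest peaks taken from each library, SE/SE minus wild type was -5.33 peaks in place of 7 (exact permutation p = 0.2). The strongest were taken by signal value, which grows with peak width, so this cut can also change which widths are kept. The part of list length alone was not tested.

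Gene by gene, peak numbers were higher in every SE/SE library than in any wild-type library at Gli2 and Gli3, 2 of 9, where the background over 15847 genes with a peak was 15.2%. They were higher in every wild-type library at Gli1 and Hhip, 2 of 9, with a background of 0.852%. Among the 2095 genes with a mean of at least 4 peaks per library, to which 6 of the 9 belong, these shares were 42.2% and 1.58%. At those 6 members they were 33.3% (2 of 6) in each direction. Covered bases were higher in every SE/SE library at 6 of the 9 (Ptch1, Gli1, Gli2, Gli3, Hhip and Gas1), close to the background of 66.8%, and higher in every wild-type library at 0 of 9, with a background of 0.145%. The ratio of mean bases, SE/SE over wild type, had a median of 1.33 over the 9 genes (1.03 to 2.13) and of 1.29 over 15064 genes (quartiles 1.13 to 1.57). No gene of the 15847 passed: the smallest exact permutation p was 0.1, and the smallest value adjusted over all genes (Benjamini-Hochberg) was 0.62 for peaks and 0.149 for bases, with 0 genes under 0.05 before or after adjustment.

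**Figure D2:**
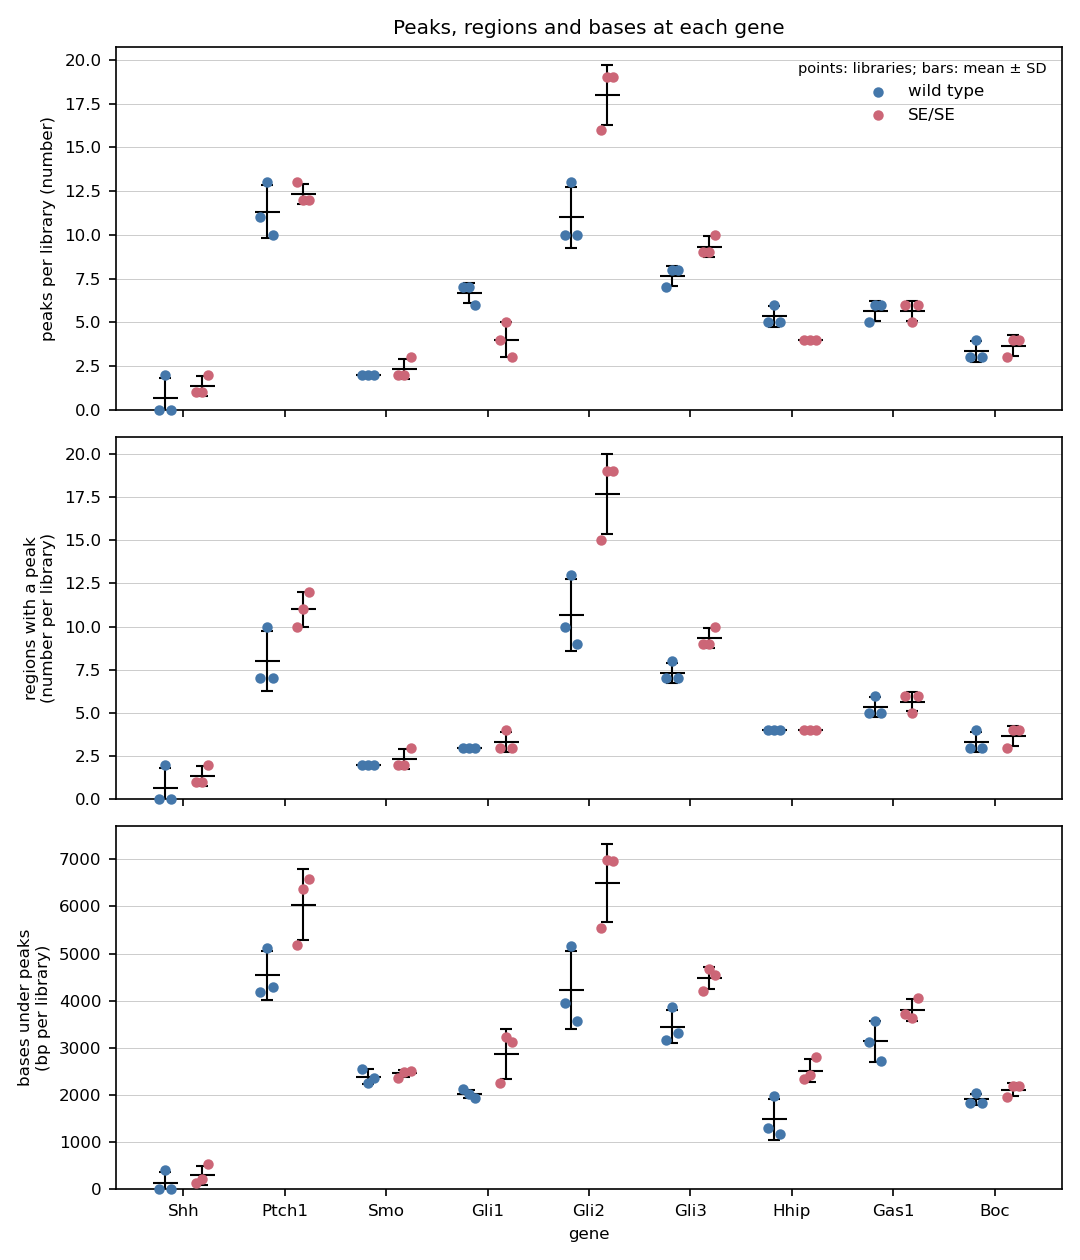
Number of peaks and bases under peaks (vertical axes) at each of the 9 genes (horizontal axis) in the 6 libraries; each point is 1 library. For peak number, Gli2 and Gli3 have all SE/SE points above all wild-type points, and Gli1 and Hhip the reverse; for bases, SE/SE points are above wild-type points at 6 genes.

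Shh (gene ID 20423, chr5:28456840-28467101), which encodes the secreted ligand, had the fewest peaks and covered bases of the 9 genes. Wild-type libraries 1, 2 and 3 had 0, 2 and 0 peaks there and SE/SE libraries 1, 2 and 3 had 1, 1 and 2, covering 0, 409 and 0 bases and 135, 209 and 529 bases. The groups overlapped through wild-type library 2 (exact permutation p = 0.6 for peaks, n = 3 each). Both regions lay inside the gene. The first, chr5:28463215-28463423, was present in wild-type library 2 (percentile 14.7) and in SE/SE libraries 1, 2 and 3 (percentiles 4.48, 27.6 and 25.2). The second, chr5:28464553-28464904, was present in wild-type library 2 (13.2) and SE/SE library 3 (40.2).

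No library had a peak within 1 kb of an end of Shh, yet both joint lists, which the authors deposited for each genotype, did. Of all 21887 genes, 1224 (5.59%) showed that combination, 12174 (55.6%) had an end peak in all 6 libraries, and 38.9% had one in none. Each joint list had 11 peaks at Shh, 7 of them inside the gene in SE/SE and 5 in wild type. The strongest was at the second region in both, at percentile 75.6 of the wild-type list and 80.6 of the SE/SE list.

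The gene desert of Shh lies on its higher-coordinate side, where the next protein-coding gene, Rnf32, begins after 725.6 kb; on the other side Rbm33 ends 37.6 kb away. This desert is known to hold enhancers that act on Shh from a long distance, and Lmbr1, beyond Rnf32, holds the limb enhancer of Shh in an intron. Within 1 Mb the libraries had 4, 5 and 4 peaks in wild type and 5, 5 and 5 in SE/SE (4.33 ± 0.577 against 5 ± 0, n = 3 each, exact permutation p = 0.4). The groups touched at wild-type library 2, without which the difference was 1 peak (exact permutation p = 0.1). Without any other single library the difference was 0.5 to 0.667 peaks (exact permutation p = 0.4). Only 1 desert region before Rnf32 was shared by all 6 libraries: chr5:28697004-28697263, 229.9 kb from Shh, inside the long non-coding RNA gene 9530036O11Rik (chr5:28466984-28719209). Its percentiles were 26.2, 12.1 and 8.82 in wild type and 35.7, 45.5 and 47.4 in SE/SE. In the joint lists it stood at percentiles 80.4 (wild type) and 83.0 (SE/SE). Beside it, chr5:28697416-28697515 was called in SE/SE library 2 alone.

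Farther out, 3 regions were present in all 6 libraries, at Rnf32 (chr5:29195344-29196304), Lmbr1 (chr5:29377908-29378758) and Nom1 (chr5:29434535-29435168). The Lmbr1 and Nom1 regions lay 88 and 192 bp from an end of those genes, so they are gene-end peaks of those genes. One more, chr5:29389491-29389644, was called in wild-type library 2 and in SE/SE libraries 1 and 3, at percentiles 2.98, 0.91 and 13.4. The joint lists had more: 13 wild-type and 11 SE/SE peaks before Rnf32, and 20 and 18 within 1 Mb. The plot of the Shh side gives each joint peak with the libraries that also hold one.

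**Figure D3:**
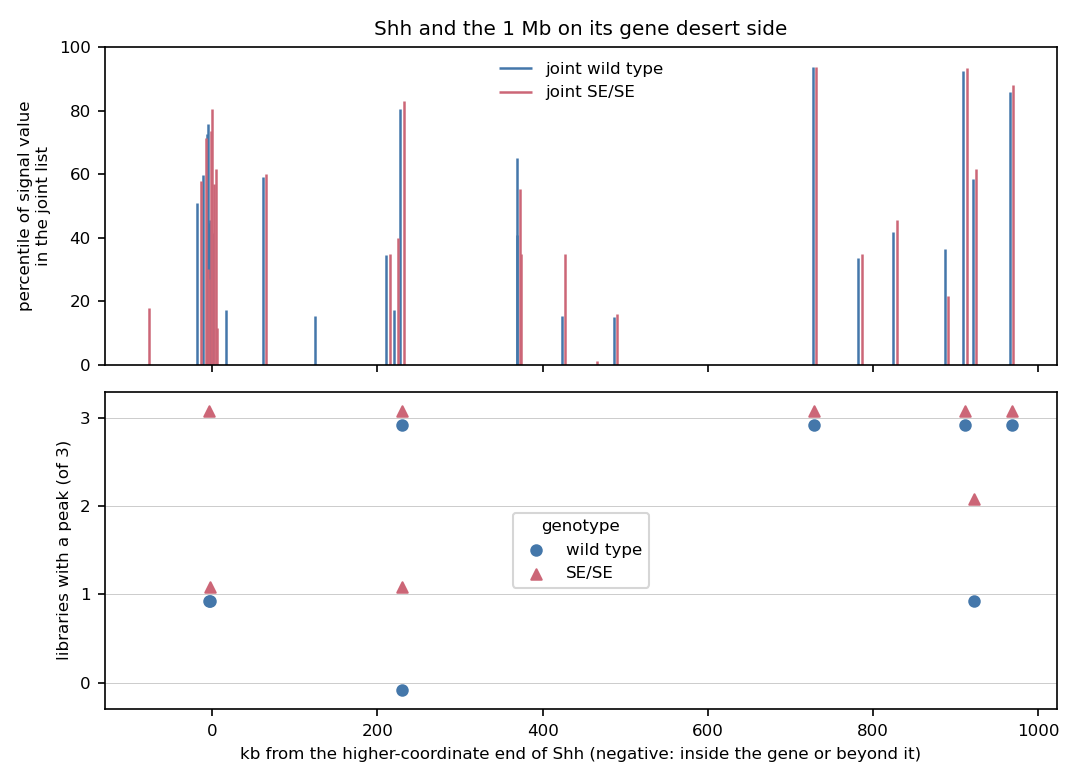
Peaks around Shh and on its desert side against distance in kb from the gene's higher-coordinate end; the upper panel gives each joint peak's percentile within its own list (lines moved aside by 2 kb per genotype so that both can be seen), and the lower panel the number of libraries of each genotype, of 3, with a peak in each region (symbols moved slightly up or down). Before Rnf32, only the region near 230 kb is held by 3 libraries of both genotypes.

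Ptch1 (gene ID 19206, chr13:63508328-63573460), the receptor, had 12 regions, 7 of them in all 6 libraries. Its peaks numbered 11, 13 and 10 in wild type and 13, 12 and 12 in SE/SE, and the groups overlapped (exact permutation p = 0.5, n = 3 each). Its bases, 4180, 5126 and 4299 in wild type and 5172, 6368 and 6579 in SE/SE, did not overlap (ratio 1.33, exact permutation p = 0.1). The region chr13:63564995-63566658 covered the promoter window shown above, at percentiles 80.1, 90.5 and 84.3 in wild type and 92.8, 94.5 and 94.7 in SE/SE. It held 3, 1 and 2 peaks in wild-type libraries 1, 2 and 3 and 1 in each SE/SE library. The percentiles are those of its strongest peak in each library. The start in this window lies inside the annotated gene: the region's nearest base is 6802 bp from the higher-coordinate end. A separate region crossed that end itself (chr13:63573344-63573771) in all 6 libraries, with a mean percentile of 43.7. Between them lay chr13:63567593-63568422, also in all 6 libraries, with a mean percentile of 89.2 beside 89.5 for the start region. The means of this pair were 89.0 and 85.0 in wild type and 89.5 and 94.0 in SE/SE. The region between was the higher of the pair in wild-type libraries 1 and 3, where the start region was split into 3 and 2 peaks. It was the lower in wild-type library 2 (89.7 beside 90.5) and in every SE/SE library, where the start region was 1 peak. Signal values grow with peak width, and the part of splitting in this order was not tested. One of the 2 regions with a peak in 3 SE/SE and 0 wild-type libraries was at Ptch1, chr13:63528475-63528640, 166 bp long and 20147 bp inside the lower-coordinate end; its mean percentile there was 19.8. Both joint lists had a peak at that place, at percentile 70.0 in wild type and 75.7 in SE/SE.

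Smo (gene ID 319757, chr6:29735497-29761366), the membrane protein that passes the signal on, had 2 strong regions in every library. Its peaks numbered 2, 2 and 2 in wild type and 2, 2 and 3 in SE/SE, and its bases 2555, 2251 and 2357 against 2366, 2495 and 2502, with overlap and the smallest ratio of the 9 genes (1.03, exact permutation p = 0.6, n = 3 each). The start region, chr6:29735288-29736483, stood at percentiles 88.5, 90.8 and 86.0 in wild type and 92.6, 93.4 and 93.0 in SE/SE. The stronger one lay 12178 bp inside the gene, chr6:29747675-29749094, at percentiles 99.6, 99.2 and 99.5 in wild type and 98.6, 98.1 and 98.0 in SE/SE. The third region, chr6:29758592-29758755, was called in SE/SE library 3 alone at percentile 8.84.

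Gas1 (gene ID 14451, chr13:60174405-60177535), a membrane-anchored co-receptor that helps cells respond to Shh, is a short gene with 1 long region across its start. That region, chr13:60175632-60178040, was the longest of the 67 (2409 bp) and stood at percentiles 97.6, 98.5 and 96.1 in wild type and 98.5, 98.6 and 98.7 in SE/SE. Peaks at Gas1 numbered 5, 6 and 6 in wild type and 6, 5 and 6 in SE/SE, the same mean of 5.67 ± 0.577 in each (n = 3). Bases were 3126, 3574 and 2711 against 3725, 3629 and 4061, without overlap (ratio 1.21, exact permutation p = 0.1). Of its 6 regions, 5 were in all 6 libraries, among them chr13:60085036-60085314, 89091 bp beyond the lower-coordinate end, with a mean percentile of 56.1. That region lay inside A530065N20Rik, a gene not annotated as protein-coding, and such genes were left out when peaks were given to genes.

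Boc (gene ID 117606, chr16:44485045-44558870), the other co-receptor, had 4 regions, 3 of them in every library. Its peaks numbered 3, 4 and 3 in wild type and 3, 4 and 4 in SE/SE; its bases were 1836, 2040 and 1837 against 1949, 2181 and 2188. Both measures overlapped between the groups (ratio of bases 1.11, exact permutation p = 0.2, n = 3 each). Its strongest region, chr16:44557777-44558995, covered the higher-coordinate end, at percentiles 88.5, 89.7 and 85.1 in wild type and 91.2, 92.6 and 92.6 in SE/SE. The other shared regions lay 27591 and 31813 bp inside that end, with mean percentiles of 72.9 and 63.1.

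Hhip (gene ID 15245, chr8:79965850-80058060), which binds Hedgehog ligands at the cell surface and so limits their range, had the same 4 regions in all 6 libraries. Its peaks nevertheless numbered 5, 6 and 5 in wild type and 4, 4 and 4 in SE/SE, without overlap (exact permutation p = 0.1, n = 3 each, adjusted over all genes 0.62). The extra peaks were all at the start. There, chr8:80057223-80058532 held 2, 3 and 2 peaks in the wild-type libraries and 1 in each SE/SE library. The wild-type peaks covered 540, 1075 and 456 bases and the SE/SE peaks 1157, 1173 and 1296, so fewer peaks went with more bases. Over all 4 regions the bases were 1298, 1974 and 1169 against 2329, 2417 and 2801, without overlap (ratio 1.70, exact permutation p = 0.1). Of the 300 bases of its promoter window, the peaks covered 244, 300 and 231 in wild type and 300 in every SE/SE library.

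Gli1 (gene ID 14632, chr10:127329882-127341579), the activator whose transcription is widely used as a readout of the pathway, showed the same layout. Its peaks numbered 7, 7 and 6 in wild type and 4, 5 and 3 in SE/SE, without overlap (6.67 ± 0.577 against 4 ± 1, exact permutation p = 0.1, n = 3 each, adjusted over all genes 0.62). Its regions, by contrast, numbered 3, 3 and 3 and 3, 4 and 3, and its bases 2116, 2010 and 1944 against 2254, 3229 and 3117 (ratio 1.42, exact permutation p = 0.1). The 3 shared regions lay side by side at the higher-coordinate end. Of them, chr10:127338919-127339660 and chr10:127339918-127341168 each held 2 peaks in every wild-type library and 1 in every SE/SE library. The former stood at percentiles 52.3, 49.9 and 50.3 for its strongest wild-type peak and 70.6, 70.3 and 72.9 in SE/SE; signal values in these lists grow with peak width. The third, chr10:127341437-127342715, held 3, 3 and 2 peaks in wild type and 2, 2 and 1 in SE/SE. Both joint lists carried the whole stretch as 1 peak at percentile 99.7.

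Among all 24370 regions with a peak in 6 of 6 libraries, 1.37% held more peaks in every wild-type library than in any SE/SE library. Of the 38 such regions at the Hedgehog genes, 3 (7.89%) did so, the 2 of Gli1 and 1 of Hhip named above. Among the 6098 longest of these regions (906 bp or more), the share was 3.48%, and it was 2 of 12 at these genes. A library had on average 1.21 ± 0.0387 peaks per member region in wild type and 1.04 ± 0.0478 in SE/SE (n = 3 each, exact permutation p = 0.1), beside 1.09 and 1.03 over all regions. When peaks of a library were joined across gaps of up to 500 bp, the mean difference in peak number became 0 at Gli1 (from -2.67) and 0 at Hhip (from -1.33). The part of PCR cycles or depth in this splitting was not tested.

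**Figure D4:**
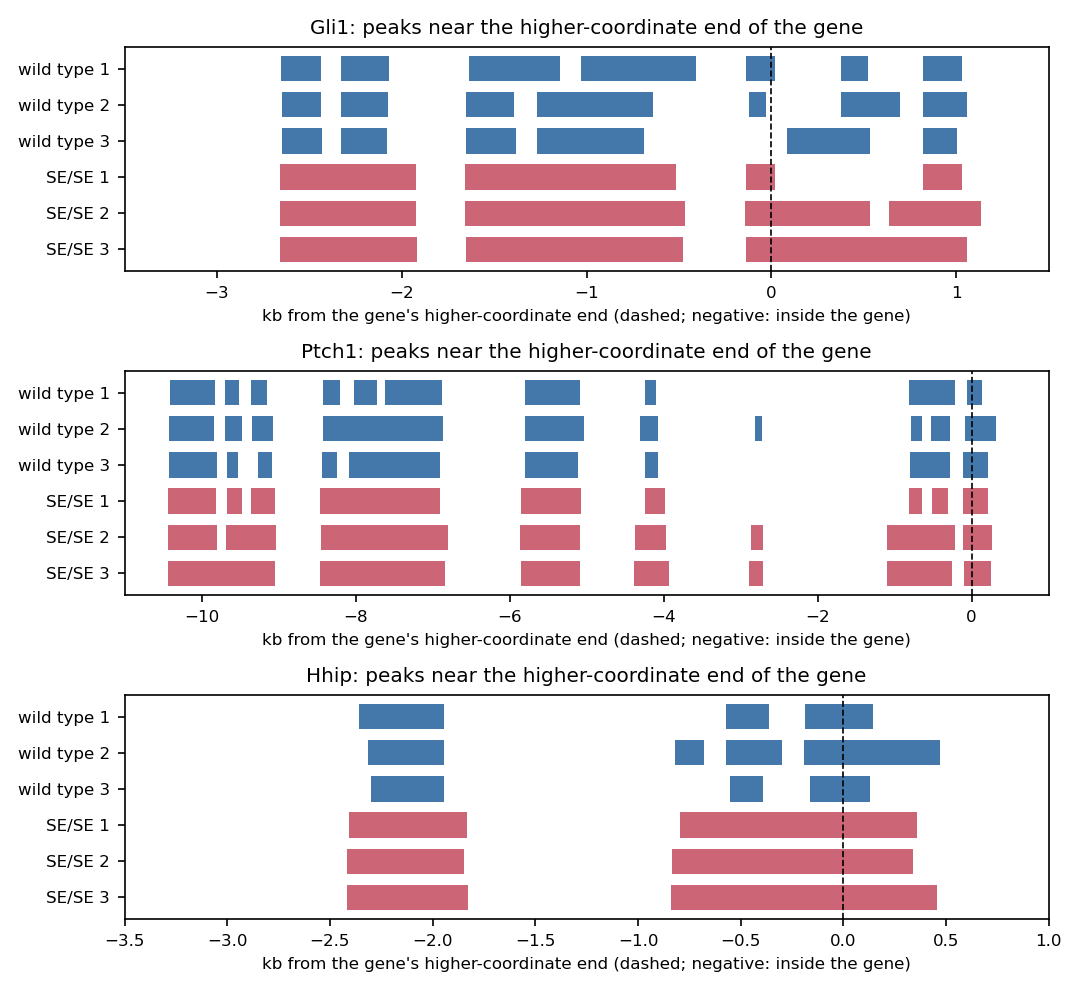
Peaks of the 6 libraries (rows) near the higher-coordinate ends of Gli1, Ptch1 and Hhip, drawn as bars against distance in kb from the gene's higher-coordinate end (negative: inside the gene). Inside Gli1 and at the start of Hhip, the wild-type rows show several short bars where the SE/SE rows show 1 longer bar. In the region across the end of Gli1, SE/SE libraries 1 and 2 also show more than 1 bar.

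Gli2 (gene ID 14633, chr1:118834061-119054405), the main activator of the initial response, had the most regions, 21, and the widest difference in peak number. Wild-type libraries had 10, 13 and 10 peaks and SE/SE libraries 16, 19 and 19, without overlap (11 ± 1.73 against 18 ± 1.73, exact permutation p = 0.1, n = 3 each, adjusted over all genes 0.62). Bases were 3945, 5168 and 3572 against 5552, 6994 and 6967 (ratio 1.54, exact permutation p = 0.1). With equal list lengths the difference in peaks went from 7 to 0. Of the 21 regions, 7 were in all 6 libraries; the strongest, chr1:119053306-119054421, covered its promoter window, at percentiles 79.6, 83.3 and 79.4 in wild type and 85.4, 88.7 and 88.5 in SE/SE. Inside the gene, chr1:118982298-118983298 (mean percentile 81.3) and chr1:118910738-118911531 (71.0) were also in all 6. The other region seen in 3 SE/SE and 0 wild-type libraries was chr1:119082720-119082881, 28315 bp beyond the start-side end, with a mean percentile of 8.69. Both joint lists had a peak there too, at percentiles 62.7 in wild type and 67.4 in SE/SE.

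Gli3 (gene ID 14634, chr13:15463723-15730026), the source of the main repressor in the absence of ligand, had the highest mean percentile of the set (99.6), although the inner region of Smo stood higher in wild-type libraries 1 and 3. Its start region, chr13:15462668-15464716, stood at percentiles 99.3, 99.6 and 99.5 in wild type and 99.7, 99.7 and 99.7 in SE/SE. Gli3 had 7, 8 and 8 peaks in wild type and 9, 9 and 10 in SE/SE, without overlap (7.67 ± 0.577 against 9.33 ± 0.577, exact permutation p = 0.1, n = 3 each, adjusted over all genes 0.62). Bases were 3173, 3856 and 3324 against 4216, 4668 and 4549 (ratio 1.30, exact permutation p = 0.1). With equal list lengths the difference in peaks turned from 1.67 to -0.333. Of its 11 regions, 7 were in all 6 libraries, 3 of them within the gene (mean percentiles 43.2 to 60.1). Beyond the far end, chr13:15758974-15759842 lay 28948 bp away with a mean percentile of 72.8.

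The joint lists held 164 peaks at the 9 genes of 120772 in SE/SE and 153 of 104991 in wild type. By gene, the SE/SE and wild-type lists had 11 and 11 at Shh, 15 and 19 at Ptch1, 4 and 4 at Smo, 16 and 17 at Gas1, 20 and 18 at Boc, and 17 and 15 at Hhip. They had 3 and 4 at Gli1, 40 and 35 at Gli2, and 38 and 30 at Gli3. Of the SE/SE peaks, 33 (20.1%) had no overlap in the wild-type list, where the background was 22.0%. Of the wild-type peaks, 7 (4.58%) had none in the SE/SE list, with a background of 6.28%. These peaks were weak, reaching at most percentile 39.6 in SE/SE (Gli3, chr13:15476917-15477134) and 27.4 in wild type (Boc, chr16:44550283-44550458). Gli3 had 11 of the 33 and Gli2 7. There is 1 joint list per genotype, so these counts have no replicate check, and 109 of the 164 and 96 of the 153 overlapped no peak of any single library.

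The wider pathway was read from a list of 44 other genes, all found in the reference table. Gene-end peaks, whichever gene they were given to, were present in all 6 libraries for 40 of them, beside 55.6% of all protein-coding genes: 1 of 2 ligands, 6 of 6 genes of ligand making and release, 5 of 5 receptors and co-receptors, 14 of 15 cilium and transduction genes, 8 of 8 kinase and Gli turnover genes, and 6 of 8 known targets. Ihh, another Hedgehog ligand, and Kif3a, a motor subunit needed for cilia, had none in any library, although 1 peak in every library was given to Kif3a. Ccnd2, a cyclin, and Nkx2-2, a transcription factor of ventral neural progenitors, had one in 1 wild-type library (library 2) and 3 SE/SE libraries. Peak numbers were higher in every SE/SE library for 9 of the 44 and in every wild-type library for 0, beside 15.2% and 0.852% of all genes with a peak. Among the 9 were Hhat, the ligand's acyltransferase; Scube1; the receptors Cdon and Lrp2; Tulp3, which acts on ciliary signalling; the kinase subunit Prkacb; Btrc, which targets Gli proteins for processing; and Bcl2. Hhat had 3, 3 and 3 peaks in wild type and 5, 9 and 8 in SE/SE. Lrp2 had 3, 6 and 3 against 7, 7 and 7. Cdon, which shares its co-receptor role with Boc and Gas1, had 6 in each wild-type and 7 in each SE/SE library. Covered bases were higher in every SE/SE library for 35 of the 44 and in every wild-type library for 0, beside 66.8% and 0.145% of all genes with a peak.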

How the data were processed

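Peak lists of 6 ATAC-seq libraries and 2 joint lists, 1 per genotype, were used as deposited. Transposition used 100000 cells and amplification the share of 50000, per the labels' protocols. Per the submitters' processing notes the build was GRCm38/mm10 and the tools included Genrich 0.5 (a peak caller), bedtools 2.27.0, BWA, cutadapt and limma; their settings, read filters, any Tn5 shift and how libraries were joined are not given in the sources used here. Per the file headers the lists are in narrowPeak form: the signal value deposited in column 7 grows with peak width (lowest 20.0), the authors' score in column 5 equals 1000 times signal over width within 1, capped at 1000, and −log10 p and q deposited in columns 8 and 9 were not used. Signals were ranked as percentiles within each list only, since ranks from lists of different lengths show no change.

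Peaks were placed by summit on RefSeq genes (GRCm38.p6), and gene-end peaks lay within 1 kb of an end. Libraries were compared by exact two-sided permutation over 20 assignments (scipy 1.17.1, pandas 2.3.3), with Benjamini-Hochberg adjustment over all genes. The scripts were tested on simulated data: 100% of 1500 peaks were assigned as by brute force, and 100% of 200 planted regions specific to each genotype were recovered. The genes and lists were chosen with earlier results of these data known. Named regions are the genotype-specific ones, those at a gene start and the strongest of each gene; others named were chosen after their values were seen. Pathway genes are named where an end peak was missing in a library or peak numbers did not overlap. One gene that met this rule is not reported here by name. Alternatives varied the assignment distance, gene set, signal minimum, list length, overlap and libraries.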

Additional observations from a re-analysis of the deposited data

How the results depend on the processing

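Of 268 alternative values, 151 concerned the counts and differences that answer a comparison: 3 differences turned in direction and 7 counts moved. Of the 117 for single genes, 1 turned and 11 moved by more than the spread between replicates. A turn was counted only for genes whose peak numbers did not overlap between the genotypes. Ptch1, where they overlapped, was counted as moved, although its difference went from 1 to -1.67 peaks with equal list lengths. With equal numbers of peaks from each library, the difference in peaks at the 9 genes turned to -5.33 (exact permutation p = 0.2), that in the share of covered bases to 0.0023 percentage points (exact permutation p = 0.6) and that at Gli3 to -0.333 peaks. In that setting the difference in regions was 1.33 (exact permutation p = 0.5). There, 1 member region was SE/SE-specific, beside 1.38% of all regions. More peaks in every SE/SE library were seen at 0 of the 9 genes, beside 1.75% of all genes with a peak. The share of covered bases also turned, to 0.00126, with signal values of at least 100 (exact permutation p = 0.9). Genes with more peaks in every SE/SE library were 1 with non-coding genes included, beside 14.2% of all genes with a peak. They were 0 with gaps up to 500 bp joined, an alternative chosen after seeing the data, beside 15.3%. Leaving out 1 library gave 2 to 8 SE/SE-specific regions and 2 to 4 genes with more peaks in every SE/SE library, both highest without wild-type library 2. In these runs 8.46 to 15.1% of all regions and 15.8 to 25.2% of all genes with a peak did the same. Those shares, too, were highest without wild-type library 2. The cause was not tested.

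Same-numbered libraries of the 2 genotypes were not paired by the labels, and their deviations correlated at 0.0178, 0.0114 and 0.0426, none over 0.1; wild-type library 2 correlated more with SE/SE library 1 (0.016) than with its own number. With the numbers as a replicate block, the differences are the same by arithmetic, and only the p-values can change. They were 7 peaks (exact sign-flip permutation p = 0.5) and 7777 bases (exact sign-flip permutation p = 0.25). The smallest p that design allows is 0.25. These block values are among the alternative values counted above, and they could not have turned or moved. Bases at the 9 genes differed by 5722 to 9458 in every alternative run. Read depth is unknown, so a missing peak in a shorter list means not called there.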
